A study of Mus musculus with 8 samples.

Results

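Early Kit-positive blood progenitors were rare cells of the mouse periosteum, the tissue sheath of bone, that held mRNA of Kit, the receptor for stem cell factor, together with mRNA of Cdk6, a kinase of the G1 phase that immature blood cells carry. The cells were chosen by their own measured UMIs: a cell was included when it held at least 2 UMIs of Kit and at least 3 UMIs of Cdk6, where a UMI (unique molecular identifier) counts 1 captured mRNA molecule. Cells with at least 10 UMIs of Mpo and at least 10 of Elane, Prtn3 and Ctsg together were left out as granulocyte and monocyte progenitors, and cells with at least 3 UMIs of Cd79a, at least 5 of Mcpt8, at least 5 of Cma1 and Mcpt4, or at least 0.5% of UMIs from Col1a1, Col1a2, Col3a1 and Dcn were left out as B-lineage, basophil, mast or stromal cells. The rule found 56 cells among 12253 kept cells, 22 of 6029 on the normal diet (ND) and 34 of 6224 on the high-fat diet (HFD). A barcode was kept if over 500 but under 8000 genes were detected in it and mitochondrial UMIs stayed below 20%.

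The study asked how diet-induced diabetes and loss of bone nerves alter periosteal cells. Periosteal cells were freed by enzyme digestion from femurs and tibias of C57BL/6J male mice aged 16 weeks, which had eaten Normal diet chow or High fat diet chow, and their mRNA was sequenced cell by cell in droplets, and no sort for Kit or another surface protein is named. The labels name no transgene, Cre or other allele in either group. Labels list 4 samples per diet, but each diet had 1 count matrix in which no barcode was tied to a mouse, so each diet is 1 library, the differences between diets had no replicate check, and no test between diets was made. The 56 cells held 786348 UMIs in ND and 1064066 in HFD. Depth per cell ran from 968 to 97306 UMIs in ND, with a median of 27987.5, and from 10219 to 109733 in HFD, with a median of 21678.5. The libraries shared 15 barcodes, none of them among the progenitors, and the kept cells of ND and HFD had median depths of 4610 and 4823.5 UMIs.

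Hematopoietic stem and progenitor cells depend on stem cell factor, which binds Kit and signals through kinases, phosphatases and STAT5 to survival and division. The earliest cells carry factors such as Gata2, Hlf and Meis1. As cells commit, Klf1 and Gata1 direct the erythroid path, Spi1 the myeloid path, and Pf4 and Itga2b mark the megakaryocyte path.

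The share of these progenitors among kept cells was 0.365% in ND, with a 95% interval of 0.229% to 0.552%, and 0.546% in HFD, with an interval of 0.379% to 0.763%. Both intervals are exact Clopper-Pearson intervals and cover counting error only, and they overlapped. Of the 160 kept cells that passed both UMI minimums, 96 were removed by Mpo and the granule genes, 58 in ND and 38 in HFD. The Mcpt8 limit applied to 14 cells, the Cd79a limit to 4, the mast cell limit to 2 and the stromal limit to 1, and a cell could meet more than 1 of these. With at least 3 UMIs of Kit, 18 ND and 22 HFD cells remained, 0.299% and 0.353% of kept cells.

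The markers fixed for the label were not carried by all 56 cells. Kit ran from 2 to 11 UMIs per cell in ND, with a median of 3.5, and from 2 to 7 in HFD, with a median of 3. Cdk6 ran from 3 to 40 UMIs per cell in ND, with a median of 12.5, and from 3 to 29 in HFD, with a median of 8. These values chose the cells and are given as a description. Gata2, a transcription factor of stem cells and of the mast and megakaryocyte paths, was detected in 35 cells, 14 in ND and 21 in HFD. Cd34, a surface sialomucin of early progenitors, was detected in 19 cells, 6 in ND and 13 in HFD. Car1, a carbonic anhydrase of early erythroid cells, was detected in 26 cells, 14 in ND and 12 in HFD. No UMI of Gata2, Cd34 or Car1 was found in 9 cells.

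**Figure D1:**
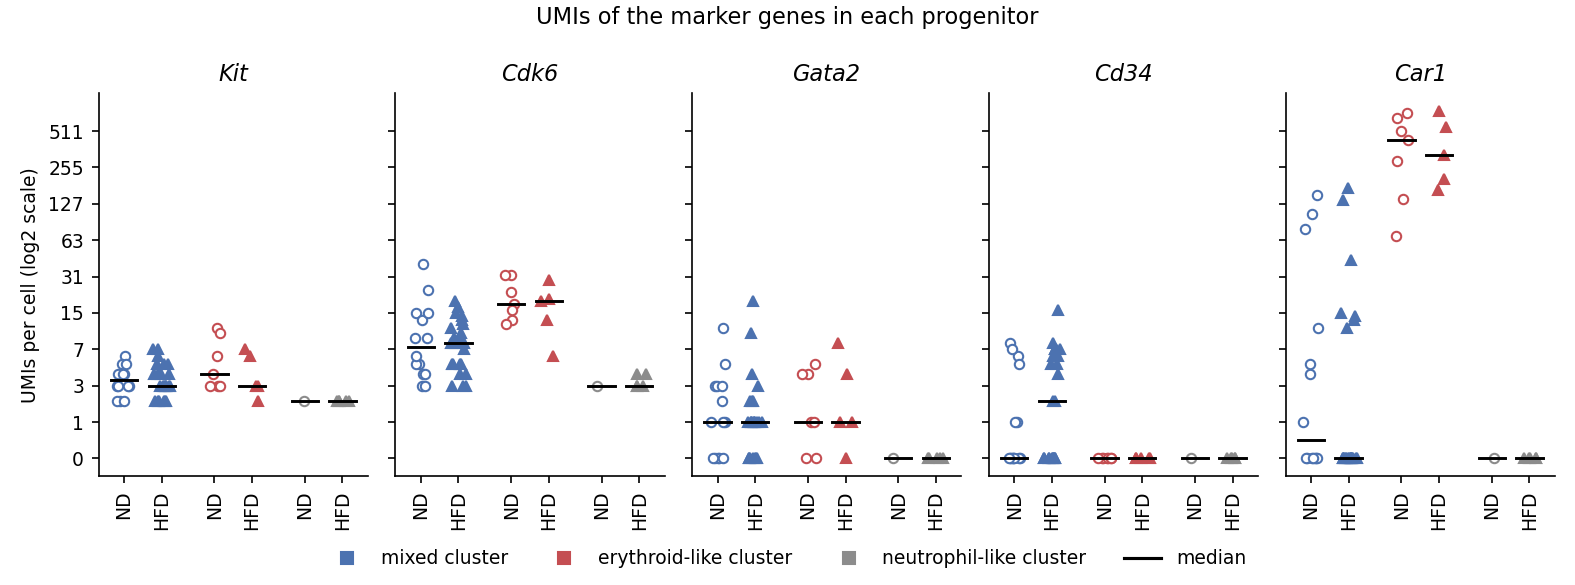
UMIs per cell (log2 scale) of the 5 marker genes, with 1 point per progenitor, split by cluster and diet, and a bar at each median. Car1 reached 68 to 752 UMIs in each of the 12 erythroid-like cells, Cd34 appeared only in the mixed cluster, and the 6 neutrophil-like cells held exactly 2 UMIs of Kit and none of Gata2, Cd34 or Car1.

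The shares of cells with a UMI were set against cell types that should lack these genes after thinning every cell to 2000 UMIs, which left out 1 progenitor. Kit was then seen in 29.1% of the progenitors (17.6% to 42.9%), in 7.85% of granulocyte and monocyte progenitors, and in 0 of 707 mature B cells, which allows a share of up to 0.424%. The rule asked for Kit in every progenitor, so this excess of Kit was set by the choice of cells and is only a description. Gata2 was seen in 10.9% of the progenitors (4.11% to 22.2%), in 5.66% of erythroid cells (1.18% to 15.7%) and in 0.283% of mature B cells. Cd34 was seen in 10.9% of the progenitors, 11.6% of granulocyte and monocyte progenitors and 0.424% of mature B cells. Car1 was seen in 45.5% of the progenitors, in 17.0% of erythroid cells and in 0.466% of mature neutrophils. All 3 genes that the rule did not use were thus above their share in mature B cells and mature neutrophils. For Gata2 the intervals of the progenitors and the erythroid cells overlapped, and Cd34 was about as frequent as in granulocyte and monocyte progenitors. Median depth before thinning was 22586 UMIs in the progenitors, 3918 in B cells and 4286.5 in neutrophils.

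The limits of the rule split the cells unevenly. Of the 16 members with exactly 2 UMIs of Kit, 6 had S100a8 and S100a9 at 5% or more of their UMIs, Gata2 was detected in 4, Cd34 in 4 and Car1 in 3. Of the 22 cells just outside, with 1 UMI of Kit, 6 were rich in S100a8 and S100a9 too, and Cd34 was detected in 13, Gata2 in 5 and Car1 in 2. Among the 40 members with at least 3 UMIs of Kit, none was rich in S100a8 and S100a9, and Gata2 was detected in 31, Car1 in 23 and Cd34 in 15. With exactly 3 UMIs of Cdk6 there were 9 members, and 3 cells with 2 UMIs of Cdk6 lay just outside.

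Clustering of the 56 cells gave 3 groups. An erythroid-like cluster of 12 cells, 7 in ND and 5 in HFD, carried 16 of 19 erythroid markers of the fixed list. Among the 16 were the hemoglobin genes Hba-a1, Hba-a2 and Hbb-bt, whose low level is given below. A neutrophil-like cluster of 6 cells, 1 in ND and 5 in HFD, carried 6 of 11 neutrophil markers. The other 38 cells, 14 in ND and 24 in HFD, matched no single list and are called the mixed cluster: they carried 7 of 14 stem and multipotent progenitor markers (among them Hlf, Meis1, Procr, Ly6a, Hoxa9 and Angpt1), 6 of 14 megakaryocyte markers, 3 of 9 granulocyte progenitor markers (Mpo, Prtn3 and Ctsg), 4 of 13 lymphoid progenitor markers, 2 of 10 monocyte and dendritic progenitor markers and 2 of 12 mast cell and basophil markers. A marker counted as carried when it had at least 20 UMIs in the cluster and was at least 2-fold higher in the cluster than in the other members. The genes that lead a cluster were used to form it, so they describe it and were not tested.

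The 6 neutrophil-like cells go against the label. Neutrophil genes made up 437341 UPM (the UMIs of a gene or list per 1000000 UMIs of a set of cells) in them, against 1852 in the mixed cluster and 420.0 in the erythroid-like cluster. Each of the 6 held exactly 2 UMIs of Kit and 3 or 4 of Cdk6. Fcnb, a ficolin of maturing granulocytes, Cybb, the catalytic subunit of the phagocyte oxidase, and the granule genes Camp, Chil3 and Lcn2 led the cluster. Cebpe, a factor of granule formation, stood at 514.5 UPM there and had no UMI in the other 50 progenitors. For the diets, many list medians are therefore also given without these 6 cells.

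The erythroid-like cells combined strong erythroid genes with almost no hemoglobin. Car1 stood at 5570 UPM in them, against 938.4 in the mixed cluster, and ran from 68 to 752 UMIs per cell. Klf1, the master activator of erythroid genes, stood at 211.2 UPM (182 to 244), and at 219.3 UPM in the separate hemoglobin-rich erythroid cells of the same tissue, which were chosen partly by a UMI of Klf1. Epor, the erythropoietin receptor, stood at 82.4 UPM, and Gfi1b, a repressor needed for red cell and platelet formation, at 87.0. The hemoglobin genes together reached 244 UPM in these cells and 378799 in the hemoglobin-rich erythroid cells, which were chosen for their hemoglobin. Tfrc, the transferrin receptor, stood at 116 and 580 UPM in these sets. Sphk1, a sphingosine kinase, was higher in the erythroid-like progenitors, at 162 UPM, than in the hemoglobin-rich cells, at 20.4. Hemoglobin is part of the UPM total, so all other genes stand lower in the hemoglobin-rich cells than they would without it. The levels of Klf1, Tfrc and Sphk1 were not corrected for this. Rhd, a subunit of the Rh blood group complex, stood at 254 UPM in the erythroid-like progenitors, and Cpox, an enzyme of heme synthesis, at 234. The hemoglobin list was low in every cluster of the progenitors, and stood at 94.1 UPM in the mixed cluster and 105 in the neutrophil-like cells. It stood at 228 UPM in mature B cells and 622 in mature neutrophils, so the level in the erythroid-like cells was no higher than in mature neutrophils. The hemoglobin genes Hba-a1 and Hba-a2, and Hbb-bs and Hbb-bt, are near-identical pairs, so only their sum is given.

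Car1 and Cd34 marked different cells. Of the 23 cells with at least 10 UMIs of Car1, 22 had no Cd34, and all 15 cells with at least 4 UMIs of Cd34 had no Car1. Flt3, the receptor of multipotent and lymphoid progenitors, was detected in 10 cells, and all 10 also held Cd34 while none held 10 or more UMIs of Car1. Hlf, a transcription factor of stem cells, was detected in 19 cells, 13 of them with Cd34 and 3 with at least 10 UMIs of Car1. All 17 cells with at least 50 UMIs of Car1 held Klf1, and 5 of those 17 lay in the mixed cluster. Gata2 was found on both sides, in 18 of the 23 cells with at least 10 UMIs of Car1 and in 13 of the 19 cells with Cd34.

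**Figure D2:**
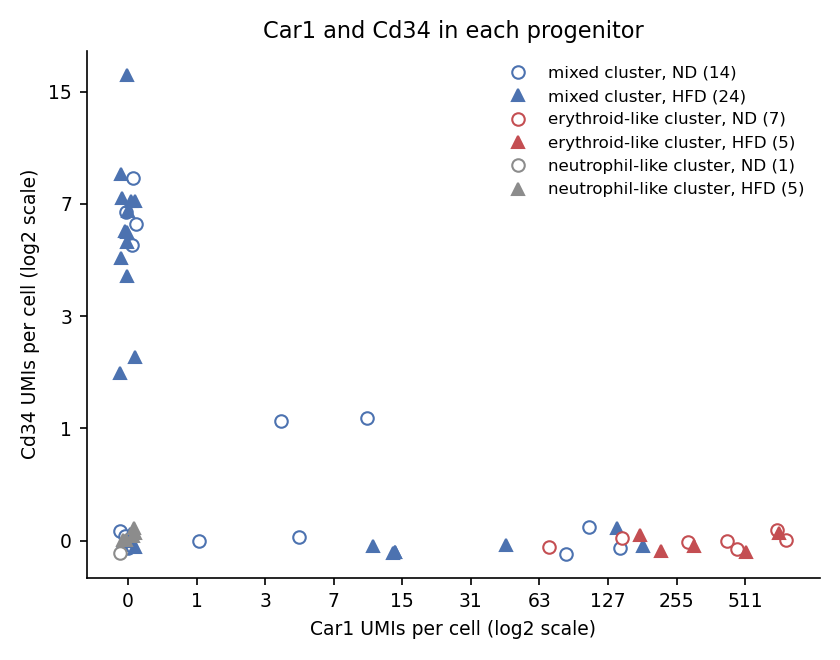
UMIs of Car1 (horizontal, log2 scale) and Cd34 (vertical, log2 scale) in each of the 56 progenitors, with color for cluster and shape for diet, and points shifted slightly so that they do not overlap. The 15 cells with at least 4 UMIs of Cd34 stood at 0 on the Car1 axis, and 22 of the 23 cells with at least 10 UMIs of Car1 stood at 0 on the Cd34 axis.

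The mixed cluster was led by Pf4, with 88.0% of its UMIs in 1 cell, Ctla2a, Ccl4, a chemokine with 52.6% in 1 cell, Cd69, an activation marker, and Plek. The erythroid-like cluster was led by Rhd, the metallothionein gene Mt2, C1qtnf12, Cpox and Car1.

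The promoters of 4 genes are shown because they belong to the gene that names these cells (Kit), to the erythroid-like cells (Klf1 and Rhd) and to the megakaryocyte genes described below (Pf4). Each is the RefSeq window from 250 bases before to 50 after the transcript start in GRCm38.p6, all on the plus strand: Kit at chr5:75574737-75575036, Klf1 at chr8:84901732-84902031, Rhd at chr4:134864286-134864585 and Pf4 at chr5:90772185-90772484. Capitals mark AGATAA or TGATAA, the motif of GATA factors (reverse TTATCT or TTATCA), and CACCC, the core of the Klf motif (reverse GGGTG). The motifs do not overlap each other in these windows.
Kit: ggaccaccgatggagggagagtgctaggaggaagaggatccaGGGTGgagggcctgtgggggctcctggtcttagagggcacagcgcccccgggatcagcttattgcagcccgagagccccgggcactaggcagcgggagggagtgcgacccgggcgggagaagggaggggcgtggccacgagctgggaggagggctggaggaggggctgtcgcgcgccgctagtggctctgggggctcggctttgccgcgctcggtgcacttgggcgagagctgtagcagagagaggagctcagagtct
Klf1: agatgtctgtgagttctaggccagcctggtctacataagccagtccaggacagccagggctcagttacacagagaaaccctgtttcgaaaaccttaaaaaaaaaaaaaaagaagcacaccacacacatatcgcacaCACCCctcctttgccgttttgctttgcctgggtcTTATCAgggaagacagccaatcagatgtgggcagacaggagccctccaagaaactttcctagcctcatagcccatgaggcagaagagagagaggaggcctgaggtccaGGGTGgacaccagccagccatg
Rhd: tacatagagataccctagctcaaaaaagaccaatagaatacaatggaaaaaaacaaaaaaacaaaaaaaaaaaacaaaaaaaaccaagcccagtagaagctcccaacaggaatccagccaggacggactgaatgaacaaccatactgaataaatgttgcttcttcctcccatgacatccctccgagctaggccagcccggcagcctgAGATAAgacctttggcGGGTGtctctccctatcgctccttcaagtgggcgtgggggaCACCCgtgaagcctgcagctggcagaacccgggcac
Pf4: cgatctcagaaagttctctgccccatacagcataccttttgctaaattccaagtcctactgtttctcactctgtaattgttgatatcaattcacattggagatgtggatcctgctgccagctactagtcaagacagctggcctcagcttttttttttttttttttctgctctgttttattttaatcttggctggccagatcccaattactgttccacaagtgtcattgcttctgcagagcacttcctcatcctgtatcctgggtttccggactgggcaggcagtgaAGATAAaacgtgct
The Kit window held no GATA match and 1 CACCC match, the Klf1 and Rhd windows each held 1 GATA and 2 CACCC matches, and the Pf4 window held 1 GATA match and no CACCC match. A GATA match stood in 18.6% of all 32851 windows and, counted by gene, in 21.0% of 27025 genes. It stood in 10 of the 15 erythroid genes that had a window (66.7%), 3 of 10 stem and multipotent progenitor genes (30.0%) and 2 of 11 megakaryocyte genes (18.2%). CACCC stood in 57.5% of all windows and, counted by gene, in 59.8% of 27025 genes. It stood in 15 of 15 erythroid, 8 of 10 stem and 8 of 11 megakaryocyte genes with a window. These are matches of letters only.

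Among the cytokine receptors, Kit stood at 169.6 UPM in the mixed cluster, 70.8 in the erythroid-like cells and 66.4 in the neutrophil-like cells, against 38.4 in granulocyte and monocyte progenitors. That order follows from the rule, which asked for Kit. Flt3 stood at 53.2 UPM in the mixed cluster (38.5 to 71.7) and 8.75 in granulocyte and monocyte progenitors, with no UMI in the erythroid-like cells. Csf1r, the macrophage colony-stimulating factor receptor, had no UMI in any of the 56 cells, and stood at 19.5 UPM in granulocyte and monocyte progenitors. Csf2ra, a subunit of the GM-CSF receptor, stood at 32.2 UPM in the mixed cluster, 15.1 in the erythroid-like cells and 134 in granulocyte and monocyte progenitors. Cxcr4, the homing receptor for Cxcl12, stood at 40.9 UPM in the mixed cluster and 8.12 in the erythroid-like cells.

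**Figure D3:**
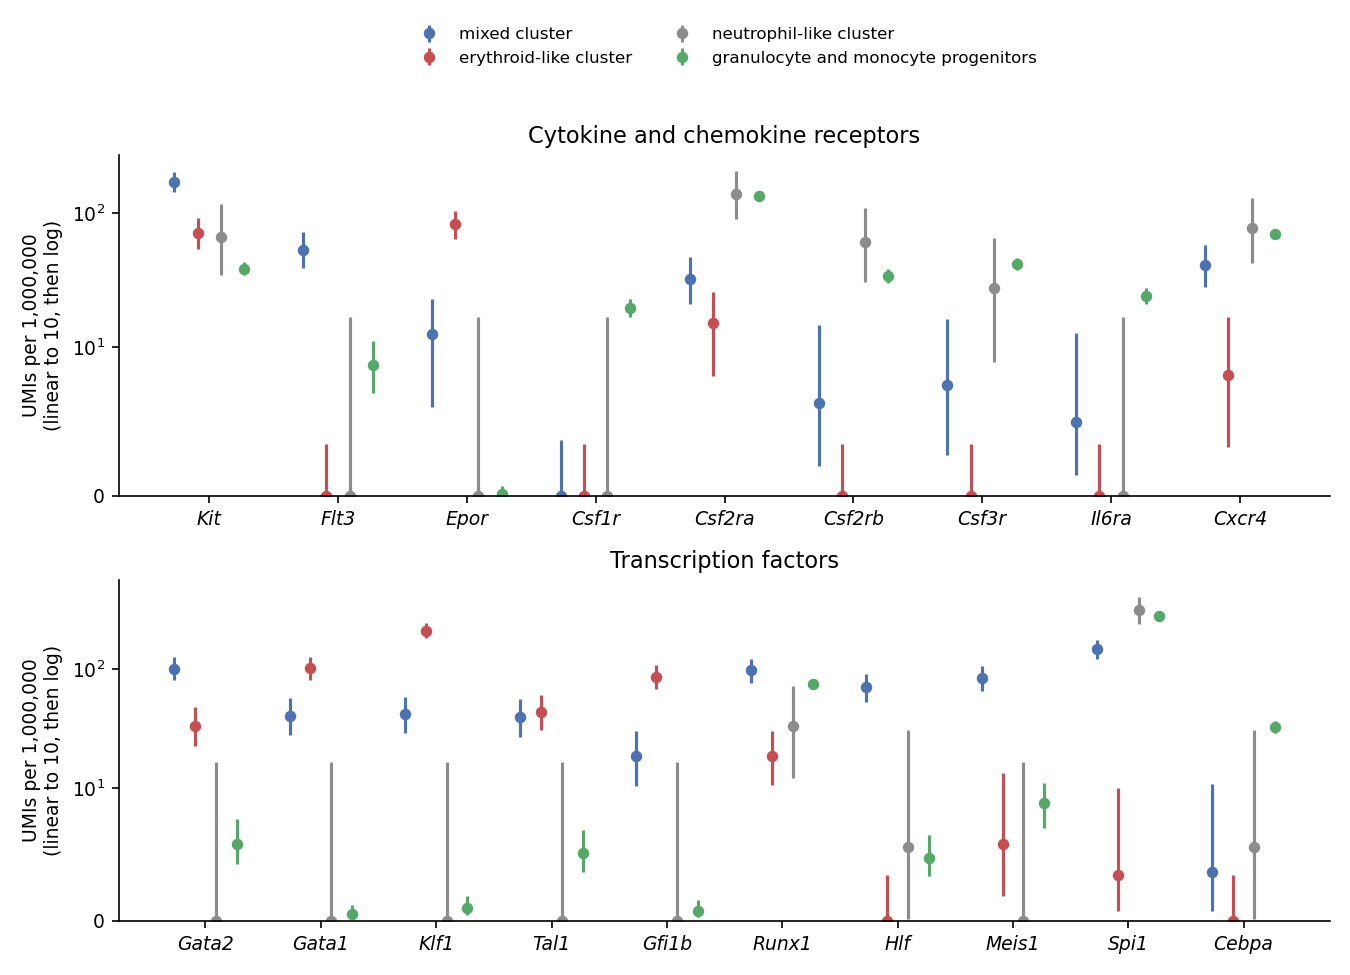
Levels of cytokine and chemokine receptors (top) and transcription factors (bottom) in UPM (axis linear to 10, then logarithmic) in the 3 clusters and in the granulocyte and monocyte progenitors; points are summed levels and bars exact Poisson 95% intervals that cover counting error only. Flt3, Hlf and Meis1 were highest in the mixed cluster, Epor, Klf1, Gata1 and Gfi1b in the erythroid-like cluster, and Csf1r and Cebpa in the granulocyte and monocyte progenitors.

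Transcription factors divided the clusters in the same way. Hlf stood at 70.6 UPM in the mixed cluster, with no UMI in the erythroid-like cells and 4.73 UPM in granulocyte and monocyte progenitors. Meis1, a homeodomain partner of Hox proteins, stood at 84.2 UPM in the mixed cluster and at 8.87 in granulocyte and monocyte progenitors. Spi1, which encodes PU.1, stood at 148.6 UPM in the mixed cluster, 3.48 in the erythroid-like cells and 279.7 in granulocyte and monocyte progenitors. Gata1 stood at 40.9 UPM in the mixed cluster, 102 in the erythroid-like cells and 0.473 in granulocyte and monocyte progenitors. Lmo2, a bridging protein of GATA complexes, and Myb, a factor of dividing progenitors, were present on both sides: Lmo2 stood at 432 and 294 UPM in the mixed and erythroid-like cells, and Myb at 225 and 202. Sox4 and Mef2c, factors of lymphoid and early progenitors, stood at 421 and 432 UPM in the mixed cluster and at 51.0 and 8.12 in the erythroid-like cells.

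The cell cycle genes also separated the clusters. Cdkn1a, the inhibitor p21, stood at 205.5 UPM in the mixed cluster, 2.32 in the erythroid-like cells and 82.9 in granulocyte and monocyte progenitors. Ccnd2, cyclin D2, stood at 203 UPM in the mixed cluster and 56.8 in the erythroid-like cells, whereas Ccne1, cyclin E1, stood at 6.19 and 74.3. The S phase list stood at 2080 UPM in the mixed cluster, 3404 in the erythroid-like cells and 3457 in granulocyte and monocyte progenitors, and the G2M list at 4903, 7860 and 6768. Mki67, a protein of dividing cells, was detected in 18 of the 38 mixed cells, in all 12 erythroid-like cells and in all 6 neutrophil-like cells. Depth moved with these shares, since the erythroid-like cells had median depths of 75428 UMIs in ND and 84502 in HFD and the mixed cells 17846 and 20630, and its part in them was not tested. Ribosome biogenesis genes, led by Npm1 and Ncl, stood at 6040 UPM in the mixed cluster and 9659 in the erythroid-like cells, above the 3732 UPM of granulocyte and monocyte progenitors and the 443 UPM of the neutrophil-like cells.

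Set against all other kept cells, the 15 genes with the largest excess in the progenitors were Car1, Car2, Ctla2a, Pf4, Blvrb, Atpif1, Npm1, Hspd1, Hdgf, Prdx2, Eef1g, Mrpl52, Ncl, Atp5g1 and Nme1. Car2, Blvrb, Atpif1 and Prdx2 are erythroid or red cell genes of carbon dioxide handling, heme catabolism, mitochondrial energy control and peroxide removal, and Npm1, Ncl and Hspd1 serve the nucleolus and protein folding. Ctla2a, a cysteine protease inhibitor, stood at 2709 UPM in the mixed cluster, 1.16 in the erythroid-like cells and 102 in granulocyte and monocyte progenitors. At 5000 UMIs per cell the progenitors held a median of 1758 genes, granulocyte and monocyte progenitors 1746.5, mature neutrophils 1135 and hemoglobin-rich erythroid cells 825.

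Single cells carried markers of other paths. Pf4, a chemokine of platelet granules, reached at least 5 UMIs in 7 cells, and 2 HFD cells held 123 and 1272 UMIs. Dntt, the terminal transferase of lymphoid progenitors, reached at least 2 UMIs in 5 cells, 1 of which, in ND, held 70 UMIs of Dntt with 5 of Flt3 and 5 of Cd34. Cpa3, a mast cell protease, reached at least 4 UMIs in 3 cells, and 1 of these, in HFD, held 20 UMIs of Cpa3, 19 of Gata2 and 127 of the granule protease Gzmb. An erythroid-like ND cell with 97306 UMIs held 194 of the 198 ND UMIs of Ccl5, a chemokine of T and NK cells. Markers of other tissue cells were near 0 over all 56 cells: macrophage genes (4 of 6 detected) stood at 8.11 UPM, mesenchymal genes (5 of 7) at 20.0, endothelial genes (4 of 6) at 6.49, mural genes (1 of 4) at 2.16 and eosinophil genes (2 of 7) at 2.70. B cell genes stood at 35.7 UPM and T and NK cell genes at 157. The rule removed cells rich in collagen genes, Dcn or Cd79a, so it partly fixed the mesenchymal and B cell levels.

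To compare the diets, UMIs were summed over the members of each library, scaled to UPM and expressed as a log2 ratio (HFD over ND), for 6782 genes with at least 20 UMIs over both. HFD was at least 2-fold higher for 416 genes (6.13%) and at least 2-fold lower for 226 (3.33%), and the median gene stood at -0.06. Without the 6 neutrophil-like cells, 6451 genes remained, with 311 higher (4.82%) and 198 lower (3.07%). Sums weight cells by depth, and the erythroid-like cells supplied 476029 of the 786348 ND UMIs and 385898 of the 1064066 HFD UMIs. With each cell given the same weight, 493 genes were higher and 532 lower. In a further setting each cluster was weighted by its share of all progenitors of both diets. The same shares were used in both libraries, which is called clusters weighted alike below, and 330 genes were higher and 298 lower. All intervals of ratios below are exact and cover counting error only.

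Of the marker genes that the rule did not use, Gata2 was close to even between diets, Car1 lower in HFD and Cd34 higher. The ratios of Kit and Cdk6 describe cells chosen by those genes. Kit stood at 117 UPM in ND and 110.9 in HFD, a log2 ratio of -0.08 (-0.48 to 0.33). Gata2 stood at 57.2 and 62.0 UPM, a log2 ratio of 0.11 (-0.45 to 0.70). Cdk6 stood at 387 and 290 UPM, a log2 ratio of -0.41 (-0.65 to -0.18). Car1 had 3162 UMIs in 14 ND cells and 2397 in 12 HFD cells, a log2 ratio of -0.84 (-0.91 to -0.76), or -0.37 with the clusters weighted alike. Cd34 had 28 UMIs in 6 ND cells and 82 in 13 HFD cells, a log2 ratio of 1.10 (0.48 to 1.79), past 2-fold; it was 0.65 with the clusters weighted alike and 0.35 after thinning to 5000 UMIs per cell. Kit, Cdk6 and Car1 also had ratios under 0 in all other kept cells, at -0.27, -0.26 and -0.11.

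The erythroid list was lower in HFD over all members and in the mixed cluster, and near even within the erythroid-like cells. Of 17 measured genes, 14 were lower and 3 higher, with a median log2 ratio of -0.55. At least 2-fold lower were 2 of them, against 3.33% of all 6782 genes. The median was -0.38 without the neutrophil-like cells, and -0.49 in the mixed cluster, where 8 of 10 measured genes were lower. Klf1 had 124 UMIs in ND and 92 in HFD, a log2 ratio of -0.86 (-1.27 to -0.47). Within the erythroid-like cluster, 9 of 17 genes were higher and 8 lower, with a median of 0.05 and 3 past 2-fold in each direction, against 2.72% of all 4306 genes higher and 3.02% lower. Rhd had a log2 ratio of -0.998 (-1.40 to -0.61) over all members, and within the erythroid-like cells stood at 277 UPM in ND and 225 in HFD when summed, or 230 and 232 as a mean over cells. The erythroid-like cells were 7 of 22 members in ND, 31.8% (13.9% to 54.9%), and 5 of 34 in HFD, 14.7% (4.95% to 31.1%), and these intervals overlapped. In all other kept cells the list's median was -0.14.

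The stem and multipotent progenitor list was higher in HFD. Of 8 measured genes, 6 were higher, 4 of them past 2-fold, against 6.13% of all 6782 genes. The list's median was 1.12, and 1.28 without the neutrophil-like cells. The same list stood at -0.15 in granulocyte and monocyte progenitors and 0.11 in all other kept cells. Hlf had 12 UMIs in 4 ND cells, 75.0% of them in 1 cell, and 46 in 15 HFD cells, a log2 ratio of 1.46 (0.56 to 2.55). Ly6a, the surface antigen Sca-1, had 4 UMIs in 1 ND cell and 28 in 8 HFD cells, a ratio of 2.23 (0.86 to 4.34). Procr, the protein C receptor of stem cells, had no UMI in ND and 21 UMIs in 7 HFD cells, at least 5.17-fold higher when ND is set to a floor of 3 UMIs per library. Meis1 (28 and 45 UMIs, a ratio of 0.24), Hoxa9 (27 and 33, -0.15) and Mllt3 (47 and 48, -0.41) had intervals that held 0. With the clusters weighted alike in both libraries the list's median was 0.77, and thinned to 5000 UMIs per cell it was 0.53. At 5000 UMIs per cell, 6 of 21 ND cells (28.6%, 11.3% to 52.2%) and 18 of 34 HFD cells (52.9%, 35.1% to 70.2%) held at least 2 UMIs of the list; unthinned, the shares were 72.7% and 88.2%.

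Genes of lymphoid and multipotent progenitors went in different directions. Flt3 had 6 UMIs in 2 ND cells and 37 in 8 HFD cells, a log2 ratio of 2.09 (0.93 to 3.72), and stood at -0.17 in granulocyte and monocyte progenitors. Dntt had 79 UMIs in ND, 88.6% in 1 cell, and 24 in HFD, 75.0% in 1 cell, a ratio of -2.13 (-2.88 to -1.48), and its sign turned, to 1.36, among cells with at least 3 UMIs of Kit. Spi1 was higher in HFD, at 40 and 140 UMIs, a ratio of 1.36 (0.85 to 1.92), or 0.49 as a mean over cells, as was Fli1, an Ets factor of stem cells and megakaryocytes, at 14 and 63 UMIs, a ratio of 1.69 (0.88 to 2.68). Hhex, a homeobox factor of early lymphoid cells, was lower, at 48 and 20 UMIs, a ratio of -1.68 (-2.53 to -0.92). Over the transcription factors 12 of 29 were higher in HFD and 17 lower, with a median of -0.15. Past 2-fold were 2 higher and 1 lower, against 6.13% and 3.33% of all 6782 genes. Without the neutrophil-like cells 16 factors were higher and 13 lower, with a median of 0.02. The cytokine receptors had 8 of 13 higher, with a median of 0.28, and -0.05 without the neutrophil-like cells.

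All 7 measured megakaryocyte genes were higher in HFD, 6 past 2-fold, against 6.13% of all 6782 genes. The list's median was 2.90, or 2.56 with the genes absent from ND at their floor. A single HFD cell supplied 79.1% of that library's UMIs of the list. Pf4 had 21 UMIs in 5 ND cells and 1425 in 9 HFD cells, 89.3% of them in 1 cell. Treml1 and Cavin2, a platelet receptor and a caveolar protein, had no UMI in ND and 26 and 24 in HFD, at least 6.40-fold and 5.91-fold higher, with 53.8% and 83.3% of them in 1 cell. The list's median level per cell was 179 UPM in ND and 139 in HFD, and at 5000 UMIs per cell 8 of 21 ND cells (38.1%) and 16 of 34 HFD cells (47.1%) held at least 2 UMIs of the list. Without the richest cell of each gene in each library the list's median was 1.89, as a mean over cells 1.56, and without the neutrophil-like cells 3.07. Plek, a pleckstrin of platelets and leukocytes, was more widespread, with 60 UMIs in 13 ND cells and 201 in 24 HFD cells, a ratio of 1.30 (0.89 to 1.75). Itga2b, the platelet integrin chain, had 11 UMIs in 7 ND cells and 46 in 10 HFD cells, a ratio of 1.58 (0.66 to 2.73). As a mean over cells its ratio was -0.56, since 1 UMI in the ND cell of 968 UMIs stood at 1033 UPM.

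**Figure D4:**
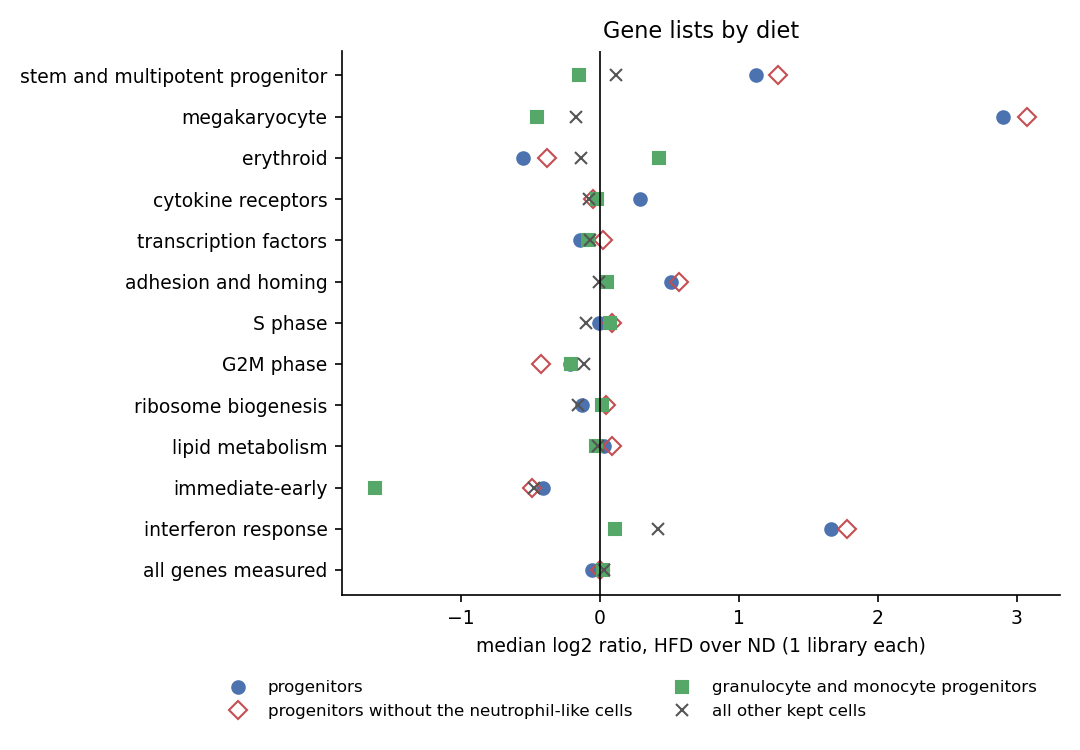
Median log2 ratio, HFD over ND, of each gene list (horizontal, 1 library per diet) in the progenitors with and without the 6 neutrophil-like cells, in the granulocyte and monocyte progenitors and in all other kept cells. The megakaryocyte, interferon response and stem lists stood at 2.90, 1.67 and 1.12 in the progenitors, while the immediate-early list was lowest in the granulocyte and monocyte progenitors, at -1.62.

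Of the 10 measured interferon response genes all 10 were higher in HFD, 5 past 2-fold, against 6.13% of all 6782 genes. The list's median was 1.67, or 1.59 with the floor and 1.78 without the neutrophil-like cells. In all other kept cells 19 of 19 were higher, with a median of 0.42 (3.98% of all 15949 genes were at least 2-fold higher there and 0.908% in granulocyte and monocyte progenitors), and in granulocyte and monocyte progenitors the median was 0.11. Isg15, a ubiquitin-like protein, had 11 UMIs in 6 ND cells and 124 in 18 HFD cells, a log2 ratio of 3.00 (2.17 to 4.10), with 41.9% of the HFD UMIs in 1 cell. Ifitm3, a membrane protein against virus entry, was the most widely detected, in 21 of 22 ND and 32 of 34 HFD cells, at 193 and 356 UPM, a ratio of 0.88 (0.61 to 1.16). Ifit1 had 66 HFD UMIs, 95.5% in 1 cell, and Rsad2 had 126, 86.5% in 1 cell. A single HFD cell supplied 28.1% of that library's UMIs of the list, and the richest ND cell 11.7%. The median cell held 471 UPM of the list in ND and 705 in HFD. In the mixed cluster 6 of 7 measured genes were higher, with a median of 2.70. In the erythroid-like cells 1 of 2 was higher, and the 2 together stood at 158 UPM in ND and 184 in HFD.

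Fabp5, a fatty acid carrier, was among the 10 genes with the largest ratio. It had 35 UMIs in 8 of 22 ND cells and 271 in 24 of 34 HFD cells, a log2 ratio of 2.50 (2.01 to 3.07), and the highest cell stood at 287 UPM in ND and 2901 in HFD. In the mixed cluster it was detected in 3 of 14 ND and 19 of 24 HFD cells. Its ratio was -0.40 in granulocyte and monocyte progenitors and -0.13 in all other kept cells. The other 18 measured genes of lipid metabolism did not pass 2-fold, and the list's median was 0.03, or 0.08 without the neutrophil-like cells. Of the remaining 9 highest genes, Pf4 is described above, and Ltf, Lcn2, Chil3, Ngp, Wfdc21, Cybb, Anxa1 and S100a8 are genes of neutrophils and other granulocytes or monocytes that held most of their UMIs in the neutrophil-like cells. Without those cells the ratios were -0.15 for Lcn2, 0.42 for Ngp, -0.05 for Anxa1 and -1.60 for S100a8. For Ltf, Chil3, Wfdc21 and Cybb they were -0.08, 0.10, -1.54 and -1.85. In that order, these genes held only 15, 7, 11 and 1 UMIs in the other progenitors of both diets. Such counts are below the minimum set for a ratio, so these values show no direction.

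Heat shock and immediate-early genes were lower in HFD, and so they were in the other cells of the tissue. Of 21 measured genes of this list 16 were lower, 6 past 2-fold (against 3.33% of all 6782 genes), and 5 higher. The list's median was -0.41, or -0.49 without the neutrophil-like cells. The medians were -1.62 in granulocyte and monocyte progenitors, where 21 of 22 were lower and 15 past 2-fold (2.84% of all 9909 genes), and -0.48 in all other kept cells, where 21 of 22 were lower too (4 past 2-fold, as were 1.27% of all genes). Hspa1a, an inducible heat shock protein 70, had 607 UMIs in 13 of 22 ND cells and 126 in 10 of 34 HFD cells, a log2 ratio of -2.70 (-2.99 to -2.43). A single erythroid-like HFD cell held 85.7% of the HFD UMIs of Hspa1a, and without the richest cell of each library the ratio was -5.11. The near-identical Hspa1b, which can share reads with it, stood at -2.09, and Dnajb1, a partner of both, at -1.70 (-2.00 to -1.42). In all other kept cells these ratios were -1.51, -1.43 and -1.14. Fos, a part of AP-1, had 159 and 88 UMIs, a ratio of -1.29 (-1.68 to -0.91), and Klf2, a factor of quiescence, had 162 and 108, a ratio of -1.02 (-1.39 to -0.66). Nr4a1, a nuclear receptor of the same list, was higher, with 92 UMIs in 13 ND cells and 296 in 32 HFD cells, a ratio of 1.24 (0.91 to 1.60). The part of this tissue-wide difference in the progenitors' values was not tested.

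The other genes among the 10 lowest were Ccl5, Retnlg, Gm15915, Pla2g12a and Rhd. Ccl5 stood at -2.69, with 98.0% of its ND UMIs in 1 cell, and at 1.52 without the richest cell of each library, and Retnlg, a neutrophil gene, at -1.79, with 85.2% in 1 cell, and at 0.70 without the richest cells. Gm15915, a predicted gene, stood at -1.18 and Pla2g12a, a phospholipase, at -1.03, with UMIs in 13 and 12 ND cells and in 12 and 9 HFD cells.

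**Figure D5:**
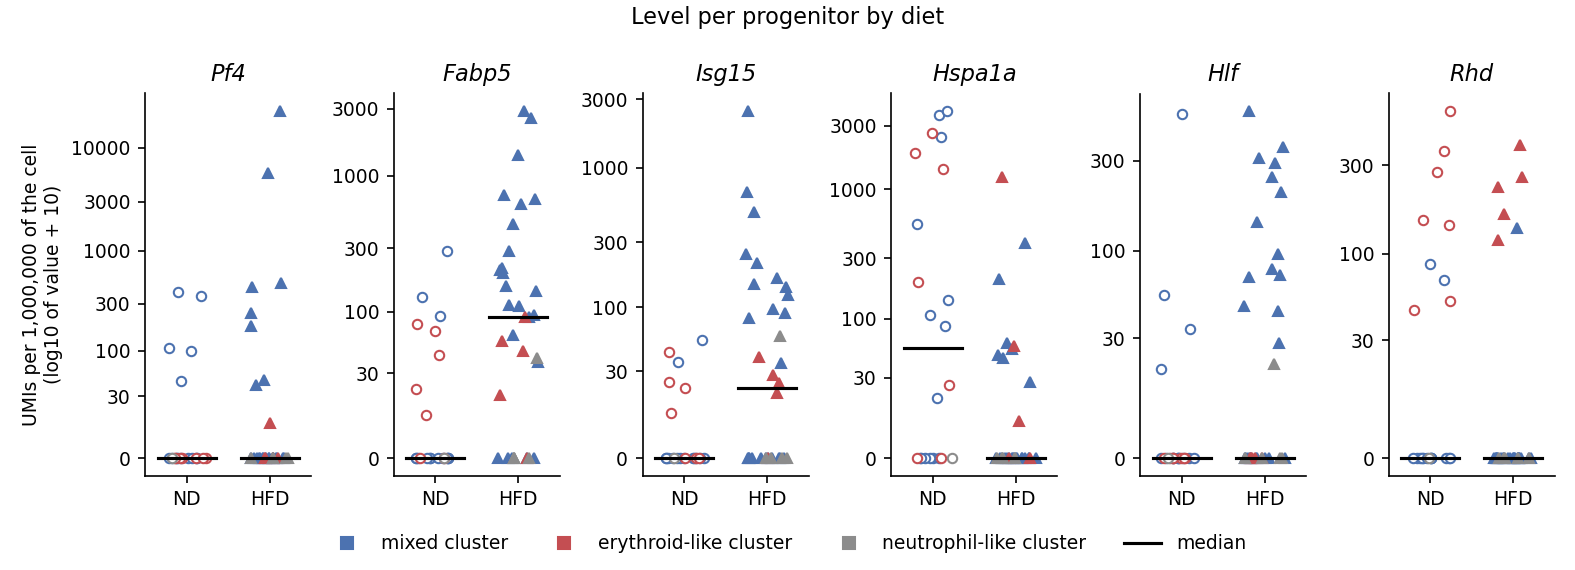
Level per progenitor in UPM of the cell (vertical, log10 of value + 10) for 6 genes, with 1 point per cell, color for cluster and a bar at the median. Fabp5 was detected in 24 of 34 HFD and 8 of 22 ND cells, Hspa1a in 10 of 34 and 13 of 22, and a single HFD cell held 1272 of the 1425 HFD UMIs of Pf4.

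Summed over the cells of the mixed cluster, genes of the S and G2M phases went apart. In these 38 cells, where 248 of 4476 genes were at least 2-fold higher (5.54%) and 222 at least 2-fold lower (4.96%), 23 of 28 S phase genes were higher in HFD, 5 past 2-fold, with a median of 0.56. Of 33 G2M genes 28 were lower, 14 past 2-fold, with a median of -0.89. In the erythroid-like cells the medians were 0.12 and -0.003, with 20 of 40 G2M genes higher and 20 lower. Over all members the G2M list had a median of -0.22, or -0.43 without the neutrophil-like cells, with 37 of 48 genes lower, and Mki67 had 144 and 214 UMIs, a ratio of 0.13 (-0.18 to 0.45). The median cell held 6364 UPM of the G2M list in ND and 3285 in HFD, and at 5000 UMIs per cell 36 and 18.5 UMIs. Within the mixed cluster the medians at 5000 UMIs were 16 UMIs in ND and 13 in HFD. There 2 ND cells held 88 and 93, and the highest HFD cell 58. Those 2 ND cells had 29019 and 30761 UMIs in full, so they weighed on the summed ND level of the cluster. Their part in the G2M ratios was not tested. Ccnd2 was higher in HFD, with 54 UMIs in 14 ND cells and 159 in 28 HFD cells, a ratio of 1.11 (0.67 to 1.59).

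Adhesion and homing genes were higher for 13 of 15 measured genes, 4 past 2-fold, against 6.13% of all 6782 genes. The list's median was 0.51, or 0.57 without the neutrophil-like cells. Within the mixed cluster 9 of 14 measured genes were higher, with a median of 0.12. Within the erythroid-like cells 4 of 5 were higher, with a median of 0.48. The list's median was 0.05 in granulocyte and monocyte progenitors and -0.01 in all other kept cells. Cxcr4 did not differ beyond counting error, with 20 UMIs in 12 ND cells and 34 in 10 HFD cells, a log2 ratio of 0.31 (-0.51 to 1.20). Adgrg1, an adhesion receptor of stem cells, had 57 UMIs in 18 ND cells and 121 in 29 HFD cells, a ratio of 0.64 (0.18 to 1.13). Genes of Kit signaling had 15 of 22 higher, 2 past 2-fold, again against 6.13% of all genes. Their median was 0.18, or 0.24 without the neutrophil-like cells. Ribosome biogenesis genes had 8 of 19 higher, with a median of -0.13; without the neutrophil-like cells 12 of 19 were higher, with a median of 0.04, and within the erythroid-like cells 15 of 18, with a median of 0.41. Ctla2a was higher in HFD, with 515 UMIs in 13 ND cells and 1675 in 21 HFD cells, a ratio of 1.26 (1.12 to 1.41), against -0.29 in granulocyte and monocyte progenitors. The mixed cluster held 2188 of the UMIs of Ctla2a and the other progenitors 2. That cluster supplied 282692 of the 786348 ND UMIs and 525032 of the 1064066 HFD UMIs, and the part of this in the ratio was not tested.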

How the data were processed

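Per the labels and the study's methods, the authors made droplet-based 3′ single-cell libraries from periosteal cells and used Cell Ranger 6.0.1 for alignment and UMI counting; the submitters' processing notes name the build mm10. The deposited values are raw UMI counts per gene and barcode, in 1 matrix per diet with 6314 (ND) and 6636 (HFD) barcodes and 32285 genes. No barcode was tied to a mouse, so each diet is 1 sample and no test between diets was made.

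Cells, summed counts and ratios were computed in Python 3.11.15 with numpy 2.4.6, scipy 1.17.1 and pandas 2.3.3. Members were clustered with scanpy 1.11.5 (2000 variable genes, 20 principal components, 15 neighbours, Leiden resolution 0.5). Log2 ratios of HFD over ND used UMIs per 1000000 (UPM) with 0.5 added to each count, for genes with at least 20 UMIs; called means past 2-fold. Intervals are 95%, exact, and cover counting error only, since mice were pooled. A count of 0 was set to a floor of 3 UMIs per library for bounds. Genes absent from 1 library keep the fitted value in counts and medians.

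Granulocyte and monocyte progenitors were 247 kept cells with at least 10 UMIs of Mpo and of the granule genes, erythroid cells 54 with at least 5% hemoglobin UMIs and a UMI of Klf1 or a further erythroid gene that is not reported here (3 of these carried basophil genes), mature B cells had at least 3 UMIs of Cd79a and 2 of Ighd, and mature neutrophils at least 5% S100a8 and S100a9 UMIs and none of Mpo or Mki67. Scrublet called 0.149% (ND) and 0.370% (HFD) of cells, under 0.5%, and was taken as not having worked; doublets were kept, and no member was called. Named genes were those of the lists, the 10 highest and 10 lowest ratios among genes with at least 200 UMIs, the 15 with the largest excess over the other kept cells among genes with at least 1000 UMIs, and the 5 leading genes of each cluster. The members, lists and rules were chosen with earlier results of these data known. Ratio scripts were tested on simulated data. The Car1 promoter is not shown here.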

Additional observations from a re-analysis of the deposited data

How the results depend on the processing

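No paired analysis was possible because each diet had 1 matrix with no map from cells to mice, and leaving out a replicate was not possible for the same reason. The share of HFD cells was 0.353% with at least 3 UMIs of Kit, and the shares were 0.793% (ND) and 1.09% (HFD) when cells thinned to 5000 UMIs needed 1 UMI of Kit and 1 of Cdk6. Genes at least 2-fold higher in HFD numbered 73 with a minimum of 100 UMIs, 2488 with a minimum of 1 and 94 after thinning, and genes lower 24, 1684 and 99, and 532 as means over cells; fewer or more genes were measured under these minimums. At resolution 0.8 the mixed cluster held 31.8% of ND cells and the erythroid-like class 63.6% of ND and 32.4% of HFD cells.

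Some signs turned, and the cause was not tested unless the alternative left out the cells named. The monocyte and dendritic list stood at -0.24 after thinning, and the neutrophil list at -1.37 with at least 3 UMIs of Kit and -0.79 without the neutrophil-like cells. List medians took the other sign for 7 of 23 lists without those cells, among them transcription factors, ribosome biogenesis and granulocyte progenitor (-0.22 to 0.47), for 7 with at least 3 UMIs of Kit and for 6 with clusters weighted alike. Without those cells Anxa1 stood at -0.054, Lcn2 at -0.15, S100a8 at -1.60 and S100a9 at -1.42. Of the UMIs left, 1 mixed-cluster ND cell held 293 of 552 for S100a8 and 457 of 893 for S100a9. With at least 3 UMIs of Kit, S100a8 stood at -1.57, S100a9 at -1.37 and Dntt at 1.36. With clusters weighted alike Camp stood at -0.35 and Ms4a3 at -0.40. Without the richest cell of each library Ccl5 stood at 1.52, Elane at 0.48 and Retnlg at 0.70, and Itga2b at -0.56 as a mean over cells. Of 316 measured listed genes, 284 kept their sign without the richest cell, 270 as means over cells and 249 with clusters weighted alike, where 39 of 64 stayed past 2-fold. A median-of-ratios factor moved every log2 ratio by 0.06. The without-neutrophil-like, mean-over-cells and richest-cell alternatives were chosen after seeing the data. With 22 and 34 cells, a gene of 20 UMIs has an interval several-fold wide.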
